A study of Schizosaccharomyces pombe with 6 samples.

Results

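The left subtelomere of chromosome I is the stretch of the fission yeast (Schizosaccharomyces pombe) genome between the telomere repeats of that chromosome arm and the gene-dense arm itself. Its members here are the counted features whose systematic identifiers start with SPAC212., SPAC977., SPAPJ695. or SPAC1F8., set out by identifier, with earlier results of these data known. Of 40 such rows, 7 were left out by the rule (SPAC212.08c, SPAC212.11, SPAC212.12, SPAC977.01, SPAC1F8.01, SPAC1F8.03c and SPAC1F8.06), which leaves 33 members, 28 protein-coding genes and 5 pseudogenes, of 7268 features in the count table. The RNA came from wild-type cells and from cpn1∆ cells, which lack the fission yeast Caprin protein, an RNA-binding protein that joins stress granules. In the mutant the gene was replaced with a hygromycin cassette (cpn1::HygMX6), and each genotype is represented by 1 strain. Wild-type and mutant alike were of mating type h+ and carried the marker alleles ade6-210, leu1-32 and ura4-D18, together with the otr1R:ade6+ reporter, an ade6+ gene placed in the pericentromeric outer repeat. Any other difference between both strains cannot be told apart from the deletion. Cells were grown in rich YES medium at 32 °C, and 3 biological replicates per genotype were sequenced as polyadenylated RNA.

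Subtelomeres of fission yeast are packaged as heterochromatin, in which histone H3 is methylated at lysine 9 by Clr4 and bound by Swi6. The telomere-binding shelterin proteins and the RNAi machinery both recruit this chromatin, and genes placed in it are transcribed at a low level during vegetative growth. The end-most stretch is built from repeats that are shared between chromosome ends and carry a family of RecQ-type helicase genes, and farther inward lie genes for cell surface proteins, transporters and metabolic enzymes, many of them used under stress, starvation or in spores. Because the ends share sequence, a read from a repeated stretch can come from more than 1 place. How the authors counted reads that map to several places, and whether strand was used, is not given in the sources used here.

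Counts assigned to genes came to between 26461217 and 32916622 per library, and the members held 1.03% to 1.10% of them. The deleted gene cpn1 gave 7543 to 9034 counts in the wild-type libraries and 169 to 194 in the cpn1∆ libraries, as the labels require. Fractional counts occurred in 760 of 7268 features (10.5%) and in 22 of the 33 members, and they were rounded for the test. Within a genotype the replicates varied beyond sampling noise, and p-values below measure this spread between cultures.

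Transcript levels of the members fell into an outer stretch with low levels and an inner stretch with a few very abundant transcripts. Levels were set side by side as CPM per kilobase of exon, where CPM are counts scaled to a common library size with TMM. The whole exon length was used, also where a counted feature on the opposite strand covers it (100% for hhy1, 62.5% for isp3). If reads there were not counted, such levels are too low, and the place of hhy1 and isp3 below the median is uncertain. In wild-type cells the median over 5107 protein-coding genes was 36.6 CPM per kb, whereas the median of the members was 2.5, and 28 of the 33 members lay below the median of all protein-coding genes. All 17 members from the chromosome end up to ayr2 were below it, with a median of 1.71 and a range of 0.277 to 13.8 CPM per kb. Most of these are pseudogenes and uncharacterised proteins, and the most abundant among them was SPAC212.04c, an uncharacterised protein. The low level does not hold for every row of this stretch. Of the rows left out by the rule, SPAC212.12 was above the median of all protein-coding genes at 46.4 CPM per kb. The others there, ftm1 at 25.9, SPAC212.08c at 12.4 and tlh1 at 3.66, were below it. Since 15 of these 17 members have copies elsewhere (below), the division of shared reads may also affect their levels. Inward of ayr2, the 9 members from plb4 to SPAC977.17 had a median of 25.6 CPM per kb, with 5 of 9 below that of all protein-coding genes. Among them, plb4 has a copy of 100% identity and no 150-base window that occurs once in the genome. Its 21.7 CPM per kb may therefore be a share of reads divided with the copy, and its place below the median is uncertain. The 2 SPAPJ695 members then dropped back to 1.32 and 2.97 CPM per kb. The 5 SPAC1F8 members ran from 0 to 4901 CPM per kb, the widest range of the 4 series of identifiers. The 0 is that of hhy1 and sets no limit on its level.

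The 5 members above the median of all protein-coding genes were pdc101, SPAC977.14c, SPAC977.12, nhe1 and fex1. The transcript of pdc101 (SPAC1F8.07c), a putative pyruvate decarboxylase, the enzyme type that turns pyruvate into acetaldehyde in fermentation, ranked 10 of 5107 at 4901 CPM per kb. SPAC977.14c, an aldo-keto reductase family protein, ranked 181 at 842 CPM per kb, and SPAC977.12, an L-asparaginase, ranked 556 at 211 CPM per kb. Lower in the order came nhe1 (SPAC977.10), the plasma membrane sodium/proton antiporter also known as Sod2, at rank 1643, and fex1 (SPAC977.11), a fluoride export channel, at rank 2268. Together pdc101 and SPAC977.14c held 93.1% to 93.4% of the member counts in every library, so that a sum over the region says little about its other genes.

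**Figure D1:**
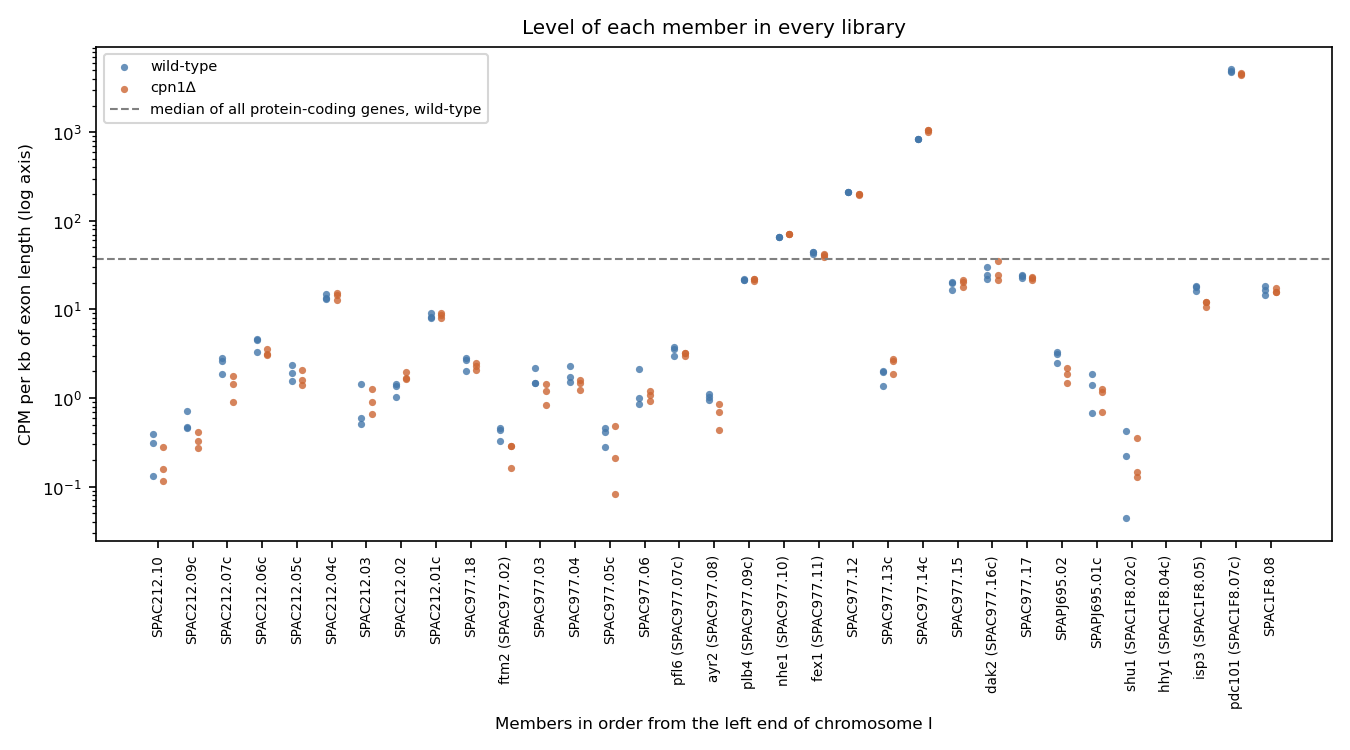
Level of each member in each of the 6 libraries, as CPM per kb of exon length on a log axis, with members in their order from the left end of chromosome I and 1 point per library. The dashed line is the wild-type median of all protein-coding genes, 36.6 CPM per kb. By whole exon length 28 of 33 members lie below it, among them hhy1, which had no counts and has no point.

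Few of these transcripts differed between cpn1∆ and wild-type cells, and none of those called differed by 2-fold. Of the 33 members, 28 had enough counts to be tested, and 4 of them (14.3%) were lower and 2 (7.14%) higher in cpn1∆ cells at an FDR under 0.05 (quasi-likelihood test of edgeR, adjusted by Benjamini-Hochberg over all 5812 features tested). Among all features tested, 10.2% were lower and 8.36% higher, so that the shares among the members lie near the background and are no result about the region as a whole. With scaling by total counts only, the split over all features changed from 595 lower and 486 higher to 399 lower and 636 higher. The median log2 fold change (log2FC, cpn1∆ against wild-type) of the members tested was -0.12, with 18 of 28 below 0, beside 0.01 for all features tested. With the thresholds of the study, an FDR under 0.05 and a change of more than 2-fold, 0.619% of all features and 0 of the 28 members were called. At an unadjusted p under 0.05, 10 of 28 members passed beside 1826 of all 5812 features, and 0 of these members were past 2-fold, and DESeq2 and limma voom also called 0 members past 2-fold. The largest change of any member was a log2FC of -0.81.

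Some of these calls depended on single libraries. The count of lower members was 1 without cpn1∆ replicate 2, and 2 without wild-type replicate 1, wild-type replicate 3 or cpn1∆ replicate 1, and the count of higher members was 1 when any of wild-type replicates 1 and 2 and cpn1∆ replicates 2 and 3 was left out. Of the 6 members called, 2 were called in every one of 19 alternatives, namely isp3 and SPAC977.14c.

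**Figure D2:**
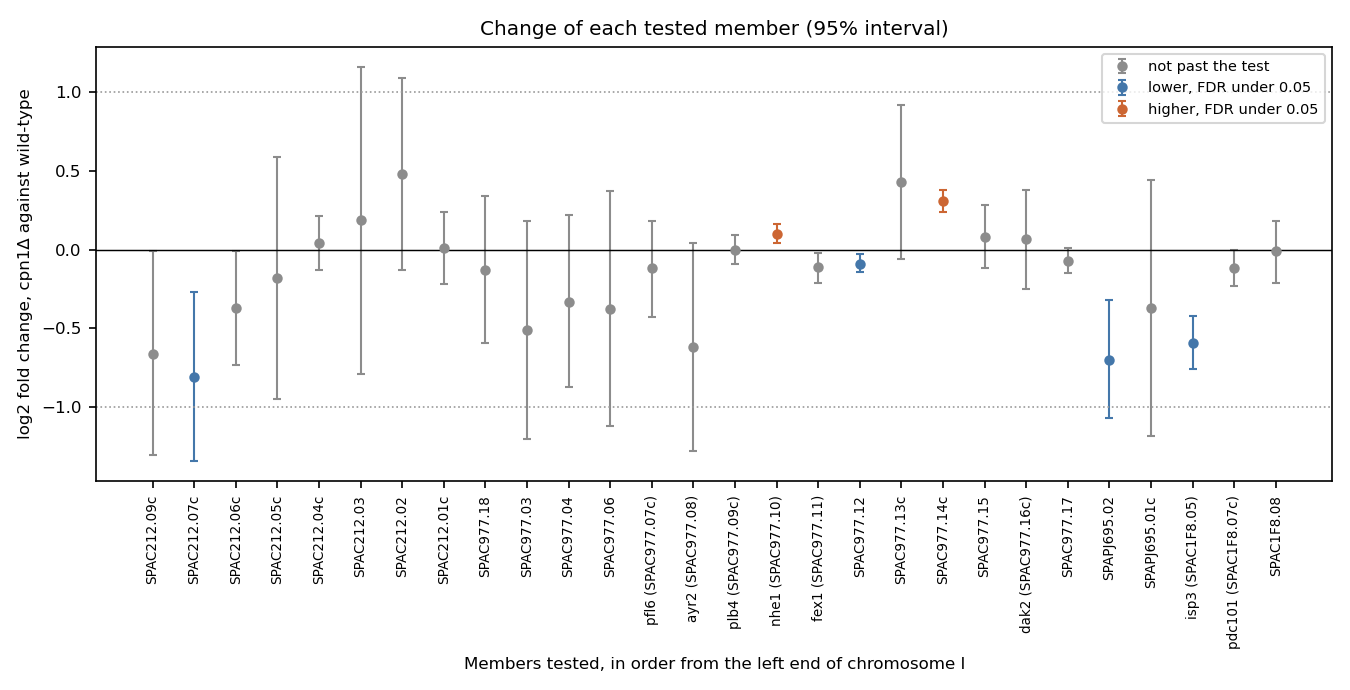
Log2 fold change of each of the 28 members tested, cpn1∆ against wild-type, with its 95% interval, in order from the left end of chromosome I. Blue points passed an FDR of 0.05 as lower (4 members), orange points as higher (2 members), and grey points did not pass; the dotted lines mark a 2-fold change, which no point reaches.

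The member with the clearest decrease was isp3 (SPAC1F8.05), which encodes a protein of the outermost layer of the spore wall. Its level was 19.0, 21.4 and 20.9 CPM in the wild-type libraries and 14.3, 14.1 and 12.6 CPM in the cpn1∆ libraries. Each mutant library was thus below each wild-type library, and the means were 20.4 ± 1.29 and 13.7 ± 0.953 CPM (SD, n = 3 per genotype). The log2FC was -0.59 (standard error 0.08, 95% interval -0.76 to -0.42, adjusted p = 0.000146 by edgeR), a decrease to 0.665 of the wild-type level. It ranged from -0.64 to -0.53 over 19 alternatives, with adjusted p-values of 9.29e-11 to 0.00108. All reads of isp3 were counted as whole numbers, but 62.5% of its length is covered by a counted feature on the opposite strand, the non-coding RNA SPNCRNA.606, which fell by 0.58 on the log2 scale (standard error 0.19, adjusted p = 0.0459 by edgeR), from 4.28 ± 0.492 to 2.87 ± 0.763 CPM (SD, n = 3). Whether strand was used in the counting is not known. Among genes covered over 100% of their length in this way, hhy1, clr3, leo1 and sgo2 had 0 counts in every library. The counts of isp3 and SPNCRNA.606 may therefore leave out the shared stretch or hold reads of either there, which was not tested.

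The aldo-keto reductase gene SPAC977.14c, of a family of enzymes that reduce carbonyl groups with a nicotinamide cofactor, was the member with the clearest increase. Wild-type libraries gave 1041, 1040 and 1025 CPM, and cpn1∆ libraries gave 1300, 1315 and 1228 CPM. All mutant libraries lay above all wild-type libraries, with means of 1035 ± 9.14 and 1281 ± 46.1 CPM (SD, n = 3 per genotype). The increase was 1.24-fold, a log2FC of 0.31 (standard error 0.03, 95% interval 0.24 to 0.38, adjusted p = 2.02e-05 by edgeR), and the log2FC was 0.29 to 0.33 over 19 alternatives, with adjusted p-values of 3.81e-20 to 0.000382. As a share of all member counts, SPAC977.14c made up 8.99% to 9.75% in wild-type and 11.9% to 12.5% in cpn1∆ libraries.

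SPAPJ695.02, an uncharacterised protein, was low in all libraries and lower in the mutant. It stood at 4.6, 3.64 and 4.77 CPM in the wild-type libraries and at 3.17, 2.14 and 2.73 CPM in the mutant libraries, from 114 to 152 and 67 to 91 counts. The genotypes did not overlap. The log2FC was -0.70 (standard error 0.17, 95% interval -1.07 to -0.32, adjusted p = 0.0132 by edgeR). Without cpn1∆ replicate 2 it was -0.56 and not past the threshold (adjusted p = 0.0655), while the other alternatives gave 0.000455 to 0.0437. The neighbouring SPAPJ695.01c, also uncharacterised, had 8 to 27 counts per library and a log2FC of -0.37 ± 0.38 (standard error), not past the test.

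The pseudogene SPAC212.07c showed the largest log2FC of any member, from few counts. Its level was 2.53, 1.66 and 2.32 CPM in wild-type libraries, from 67, 52 and 74 counts, and 0.800, 1.28 and 1.56 CPM in cpn1∆ libraries, from 23, 40 and 51 counts. The highest mutant library was just below the lowest wild-type library. The log2FC was -0.81 (standard error 0.25, 95% interval -1.34 to -0.27, adjusted p = 0.038 by edgeR). It did not pass in fits that lacked replicate 1 or 3 of the wild-type or replicate 1 or 2 of cpn1∆ (adjusted p = 0.0863 to 0.142, log2FC -0.83 to -0.60), and without cpn1∆ replicate 3 it was -1.04 (adjusted p = 0.0258), the only fit with a library left out in which a member passed both thresholds of the study. The other alternatives gave adjusted p-values of 0.00411 to 0.0456. SPAC212.07c has no copy elsewhere by the criterion below, and its counts were whole.

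The remaining called members changed by 7.43% and -5.82% of the wild-type level, at levels where replicates lay close together. For nhe1, whose antiporter exports sodium and lithium ions, the wild-type libraries held 118, 119 and 119 CPM and the cpn1∆ libraries 126, 128 and 128 CPM. The groups were apart (log2FC 0.10, standard error 0.03, adjusted p = 0.0199 by edgeR). This call was lost with DESeq2 (adjusted p = 0.0528) and in the fits that lacked replicate 1 or 2 of the wild-type or replicate 2 or 3 of cpn1∆ (0.0533 to 0.0725), and the other alternatives gave 0.0131 to 0.0418. For the L-asparaginase SPAC977.12, whose enzyme type releases ammonia from asparagine, the wild-type libraries held 265, 260 and 264 CPM and the cpn1∆ libraries 250, 248 and 246 CPM. Again the groups were apart, and the log2FC of -0.09 ± 0.03 (standard error) passed with an adjusted p of 0.0293 by edgeR. It was not past the threshold without any single library (0.0528 to 0.0936), with upper quartile scaling (0.0537) or with total counts only (0.17), and the other alternatives gave 0.0216 to 0.0367.

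**Figure D3:**
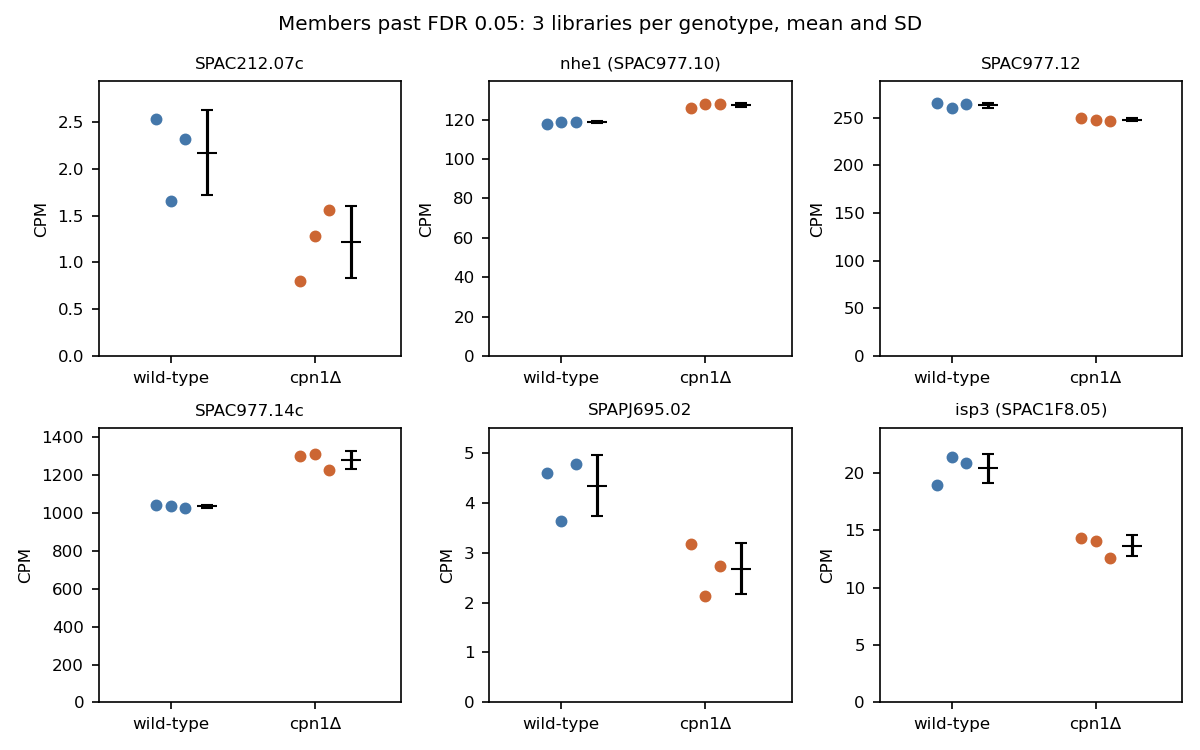
CPM of the 6 members past an FDR of 0.05 in each library, with the mean and SD of 3 libraries per genotype beside the points and each axis starting at 0. The genotypes do not overlap in any panel, which adds no support, since the members were picked by the test. The shift is plain to see for SPAC977.14c, isp3, SPAPJ695.02 and SPAC212.07c and slight for nhe1 and SPAC977.12.

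Among the other metabolic enzymes, pdc101 was slightly lower in each mutant library than in any wild-type library, but did not pass the test. It held 8899, 9159 and 9625 CPM in wild-type libraries and 8674, 8464 and 8397 CPM in cpn1∆ libraries, a log2FC of -0.12 ± 0.05 (standard error) with an adjusted p of 0.142 by edgeR. It passed with total counts only (adjusted p = 0.0369), DESeq2 (0.00265), edgeR's exact test (0.0334) and the replicate number as a block (0.0449), while the other alternatives gave 0.0691 to 0.29. The dihydroxyacetone kinase gene dak2 (SPAC977.16c), of glycerol breakdown, varied between replicates, with 52.3, 46.3 and 64.5 CPM in wild-type libraries and 74.9, 51.3 and 45.9 CPM in cpn1∆ libraries. The groups overlapped, the log2FC was 0.07 ± 0.15 (standard error), and 21.4% of the gene is covered by a counted feature on the opposite strand. SPAC977.15, a dienelactone hydrolase family protein, averaged 17.2 CPM in wild-type libraries and 18.3 CPM in cpn1∆ libraries (log2FC 0.08 ± 0.09). The phospholipase gene plb4 (SPAC977.09c) was at 48.2 CPM in both genotypes, with an SD of 0.56 and 1.03 (n = 3), and a log2FC of 0.00 with a 95% interval of -0.09 to 0.09. Much rarer were the dehydrogenase gene ayr2 (SPAC977.08), at 0.782 and 0.511 CPM (log2FC -0.62 ± 0.31), and SPAC977.03, a methyltransferase, at 0.748 and 0.508 CPM (-0.51 ± 0.32). The hydrolase gene hhy1 (SPAC1F8.04c) had 0 counts in all 6 libraries, which sets no limit on its level, since its whole length is covered by the opposite-strand RNA SPNCRNA.605, which averaged 11.2 CPM in wild-type libraries and 12.2 CPM in cpn1∆ libraries, and the reads of such a pair may not be told apart in the counting.

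Of the transporters and channels, fex1 had 58.4, 61.3 and 61.3 CPM in wild-type libraries and 53.0, 57.7 and 56.6 CPM in cpn1∆ libraries. The genotypes did not overlap, but its log2FC of -0.11 (standard error 0.04) missed the threshold (adjusted p = 0.0817 by edgeR). SPAC977.17, of the MIP superfamily of water and glycerol channels, was at 85.1 and 81.0 CPM with overlapping groups (log2FC -0.07 ± 0.04). The heme uptake gene shu1 (SPAC1F8.02c) had 28 counts over all libraries and was not tested. For the cell surface, pfl6 (SPAC977.07c), a glycoprotein of the flocculin-like family of cell adhesion proteins, was at 4.30 and 3.94 CPM (log2FC -0.12 ± 0.14) with overlapping groups.

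The remaining members, most but not all of them near the telomere, were mostly rare and mostly too uncertain to show a change. SPAC212.06c, a helicase-like gene fragment, had 2.88, 4 and 3.93 CPM in wild-type libraries and 2.71, 2.63 and 3.07 CPM in cpn1∆ libraries, a log2FC of -0.37 ± 0.17 that was not past the test (adjusted p = 0.146 by edgeR), and the groups overlapped. The uncharacterised SPAC212.04c and SPAC212.01c, the most abundant of the SPAC212 series, had narrower intervals, with a log2FC of 0.04 (-0.13 to 0.21) and 0.01 (-0.22 to 0.24). No 150-base window of SPAC212.01c occurs only once in the genome. Its counts may hold reads of its copies (below), and its interval does not cover this. The rest of the uncharacterised members tested did not pass either, with log2FC values of 0.48 ± 0.28 for SPAC212.02, 0.19 ± 0.45 for SPAC212.03, -0.13 ± 0.22 for SPAC977.18, -0.33 ± 0.25 for SPAC977.04, -0.38 ± 0.35 for SPAC977.06 and -0.01 ± 0.09 for SPAC1F8.08. Among the pseudogenes other than SPAC212.07c, SPAC977.13c was at 1.48 and 2 CPM (log2FC 0.43 ± 0.23), SPAC212.09c at 0.900 and 0.562 CPM (-0.66 ± 0.30) and SPAC212.05c at 0.374 and 0.323 CPM (-0.18 ± 0.36), none past the test. Beside shu1 and hhy1, the members with too few counts to test were the pseudogene SPAC212.10 with 26 counts in all, ftm2 (SPAC977.02), a transmembrane helix protein, with 46, and SPAC977.05c, with a Vel1p domain, with 36.

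Sequence copies elsewhere limit what can be said of single members. By comparison of the sequences, 19 of the 33 members had a copy of at least 90% identity over at least 50% of their length, 15 of the 17 members up to ayr2 and 4 of the 16 farther inward. For 10 members a copy lies in the SPBC1348 series at the left end of chromosome II. Only 13 members consist wholly of 150-base windows that occur once in the genome, and 5 have none. Of the 9 tested members with whole counts, 3 (33.3%) were lower and 1 (11.1%) higher, beside 10.2% and 8.36% of all features, and their median log2FC was -0.01. Of the 19 tested members with fractional counts, 1 (5.26%) was called in each direction, and the median was -0.12.

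The 2 called members with fractional counts each had a tested copy that moved the same way, but member and copy may hold shared reads. Of the 150-base windows of SPAC977.14c 88.5% occur once in the genome, of SPAC977.12 29.1% and of fex1 28%. The copies below are thus no independent observation. SPAC750.01, which is 92.7% identical to SPAC977.14c and lies on chromosome I, was at a log2FC of 0.32 ± 0.04 (standard error), with an adjusted p of 0.000219 by edgeR, beside 0.31 for SPAC977.14c. SPBPB8B6.05c, 95.3% identical to SPAC977.12 and on chromosome II, was at -0.08 ± 0.03, with an adjusted p of 0.0377, beside -0.09. The copy of fex1, SPBPB8B6.06c, which is 92.6% identical, did pass the test, at -0.17 ± 0.04 with an adjusted p of 0.00379, beside -0.11 for fex1. For plb4 and ayr2, whose copies SPBC1348.10c and SPBC1348.09 are 100% identical, member and copy gave the same log2FC, 0.00 and -0.62, and reads cannot tell the copies apart. In some other pairs the values lay farther apart, which was not tested. The copy of SPAC212.01c, SPBCPT2R1.04c, is 99.9% identical and was lower (-0.46, standard error 0.11, adjusted p = 0.0101), as was SPAC750.06c, 99.8% identical (-0.42, standard error 0.11, adjusted p = 0.0191), whereas SPAC212.01c was at 0.01 and its copies SPBC1348.01 and SPBCPT2R1.01c, both 96.3% identical, were at -0.09 and -0.04 and not past the test (adjusted p = 0.621 and 0.827). The helicase gene tlh1 (SPAC212.11), 99.4% identical to SPAC212.06c where they align, was at -0.67 beside -0.37. SPAC212.01c has no 150-base window that occurs once in the genome. How shared reads were divided is not known, so its difference from its copies cannot be read as one between loci.

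**Figure D4:**
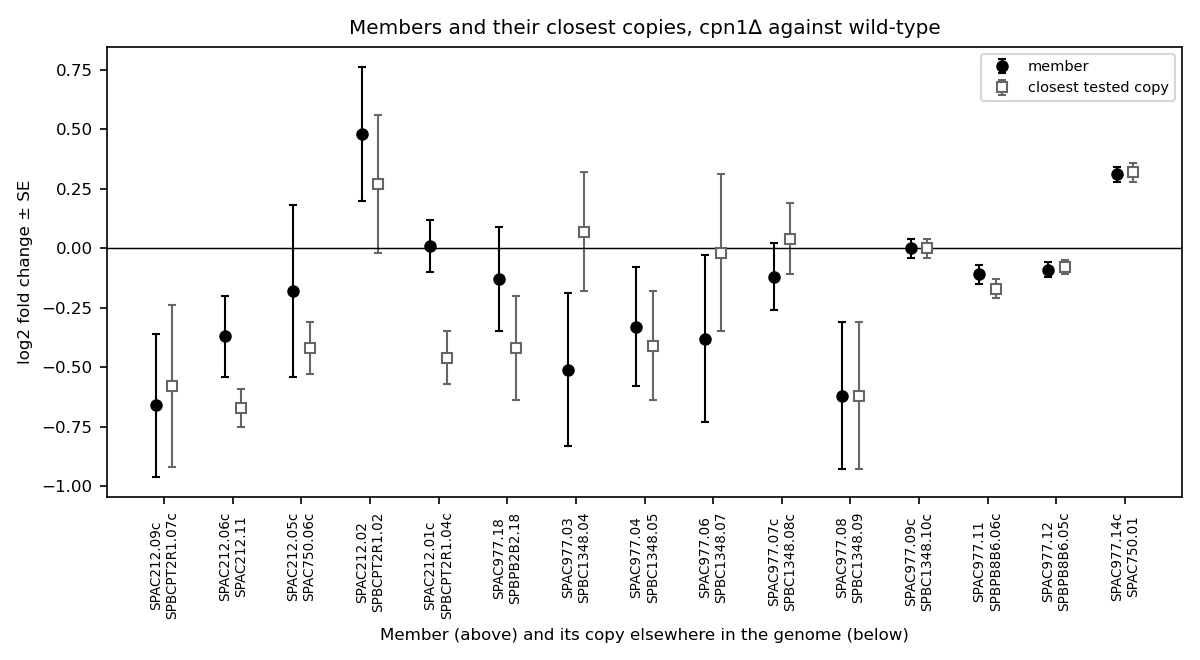
Log2 fold change, cpn1∆ against wild-type, of 15 tested members (filled points) and of their closest tested copy (open squares), with standard errors. SPAC977.14c and SPAC750.01 lie together at 0.31 and 0.32, plb4 and its copy at 0.00, whereas SPAC212.01c (0.01) and SPBCPT2R1.04c (-0.46) lie apart. Member and copy may hold shared reads and are not independent, and SPAC212.01c has no 150-base window that occurs once in the genome.

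The 7 rows that the rule leaves out moved more than the members did. Of them, 5 were lower and 0 higher (SPAC212.08c at -2.10, SPAC212.12 at -1.60, pfl8 at -0.79, tlh1 at -0.67 and ftm1 at -0.59, while the gluconate transporter gene ght3 at 0.16 and the siderophore transporter gene str3 at -0.08 were not called), and with them 9 of 35 tested rows (25.7%) were lower and 2 (5.71%) higher, beside 10.2% and 8.36% of all features. The near-background share of the members therefore holds only for the region without these rows, which were removed with earlier results known. Among 13 non-coding RNAs annotated between the outermost members, 8 were tested. Of these, 1 (12.5%) was lower and 0 were higher, beside 10.2% and 8.36% of all features, so the count is no result about these RNAs. The lower one was SPNCRNA.606 opposite isp3.

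By distance in the annotation, 10 of 41 tested features within 100 kb of the left end of chromosome I were lower (24.4%, beside 10.2% of all features) and 2 higher (4.88%, beside 8.36%), with a median log2FC of -0.18. These include the rows left out above and the non-coding RNAs. At the right end of chromosome I 8 of 34 (23.5%) were lower and 3 (8.82%) higher, with a median of -0.10. The ends of chromosome II had 17 of 35 lower (48.6%) and 0 higher at the left, with a median of -0.32, and 11 of 28 lower (39.3%) and 2 higher (7.14%) at the right, with a median of -0.33. The ends share sequence and libraries, and the differences between them were not tested. In a stretch of 100 kb just inward of the region on the left arm of chromosome I, 4 of 53 tested features (7.55%) were lower and 2 higher, with a median of 0.

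Genes for the proteins that build and bind subtelomeric chromatin were looked up as a list of 20 factors, among them the shelterin genes taz1, rap1, poz1, tpz1, pot1 and ccq1, and the heterochromatin genes clr4, swi6 and chp2. Of the 17 that could be tested, 0 were called by edgeR, DESeq2 or limma voom at an FDR under 0.05. Over all features edgeR called 10.2% lower and 8.36% higher at that threshold. With 17 genes, 0 calls are no result about the list as a whole. At an unadjusted p under 0.05, 4 of 17 passed with edgeR, beside 1826 of 5812 over all features, and 1 passed with DESeq2 and 4 with limma voom. No read was counted in any library for clr3, leo1 and sgo2, the rest of the list, each of which is 100% covered by counted features on the opposite strand, so nothing can be said of them here.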

How the data were processed

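RNA-seq counts of 3 wild-type and 3 cpn1∆ libraries were analysed. The authors deposited estimated counts per feature (whole numbers except for 760 features with fractions), made by adapter removal with Cutadapt 4.8, alignment with STAR 2.7.10b to ASM294v2 and counting with featureCounts, and they used edgeR 3.42.4 for testing. The row named other (0.608% to 0.647% of each library) is no gene and was left out. Values were rounded to whole numbers, although whole counts had been assumed, scaled with TMM, filtered with filterByExpr (minimum count 10) and tested on all 6 libraries with edgeR 4.0.16 (glmQLFit with legacy set to FALSE, glmQLFTest) in R 4.3.3, with genotype as the only term and Benjamini-Hochberg adjustment over 5812 features. The standard error was taken as |log2FC| over the square root of the F statistic. The fit was tested on simulated counts.

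Every member is accounted for, with values per library for those past an FDR of 0.05 and for others whose groups or levels are described. The members and lists were chosen with earlier results of these data known. Names, exon lengths, opposite-strand overlaps, distances and copies (blastn 2.17.0) come from ASM294v3, which is not the counted build, so no coordinates or sequences are given. Of 7268 features, 6848 matched it. Alternatives were other scalings, filters and tests (DESeq2 1.42.0, limma voom 3.58.1, edgeR's legacy and exact tests), unrounded counts, a replicate block, protein-coding genes or whole-count members only, a 1.5-fold threshold, 50 kb ends and each library left out in turn. Joins used Python 3.11.15 with pandas 2.3.3.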

Additional observations from a re-analysis of the deposited data

How the results depend on the processing

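Against 4 lower and 2 higher members, DESeq2 gave 5 and 1, edgeR's exact test 5 lower and upper quartile scaling 3 lower. Leaving out each library in turn gave 1 to 3 lower and 1 to 2 higher. Protein-coding genes only gave 3 lower, and whole-count members only 3 lower and 1 higher. These last settings tested 24 and 9 members in place of 28, so called members left with the set. Shares of all features called are not given beside these counts. Past 2-fold, 0 members became 3 at 1.5-fold and 0 to 1 with libraries left out. The share of all features past 1.5-fold is not given here, so the 3 have no background beside them. The median log2FC of -0.12 was -0.09 with total counts only and -0.13 to -0.07 with libraries left out. On smaller sets of members it was -0.08 with at least 1 CPM in 3 libraries (20 tested). It was -0.10 for protein-coding genes (24 tested) and -0.01 for whole-count members (9 tested). The correlations of same-numbered samples were -0.055, 0.045 and 0.087. No pairing by number was thus seen, although 3 samples per genotype cannot exclude one. With the replicate number as a block 5 members were lower (pdc101 was added) and 2 higher, with a median of -0.11. Within 50 kb of the left end of chromosome I, 5 of 20 tested features (25%) were lower and 0 higher, beside 10.2% and 8.36% of all features. At its right end 5 of 12 (41.7%) were lower and 1 (8.33%) higher. On chromosome II 4 of 15 (26.7%) were lower and 0 higher at the left, and 4 of 12 (33.3%) and 0 at the right. Over all members and alternatives, 469 values kept direction and call, 4 gained and 18 lost the call, and 20 changed sign, none of them called: SPAC977.09c at -0.00 with RLE scaling and with DESeq2, SPAC1F8.08 at 0.01 with total counts, and, over the range with libraries left out, SPAC212.04c (-0.01 to 0.10), SPAC212.03 (-0.10 to 0.78), SPAC212.01c (-0.04 to 0.07), SPAC977.06 (-0.57 to 0.13), SPAC977.09c (-0.01 to 0.02), SPAC977.15 (-0.01 to 0.16), SPAC977.16c (-0.17 to 0.21) and SPAC1F8.08 (-0.10 to 0.07). The cause was not tested. Among members tested, standard errors of rare transcripts reached 0.45 on the log2 scale (SPAC212.03, 62 counts in all), so that changes of the size seen for isp3 were not detectable at this depth there.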
